A study of Glycine max with 14 samples.

Results

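Phytochromes are the red and far-red light receptors of plants, and the 6 soybean loci described here are 4 assigned to phytochrome A and 2 assigned to phytochrome B. They were chosen by identifier, taking every gene model of Glyma20g22160, Glyma10g28170, Glyma19g41210 and Glyma03g38620 for phytochrome A and of Glyma09g03990 and Glyma15g14980 for phytochrome B. They are 6 of 69145 loci, and each has 1 gene model among the 78773 in the files. RNA was sequenced from cotyledons of germinating seedlings of the cultivar Williams, grown in a greenhouse and lyophilized, in 7 stages with 2 biological replicates each, which gives 14 libraries. Stage 1 was collected 1 day after imbibition and stage 2 at 2 days after planting. The later collections were at 2 to 3 days (stage 3), 3 to 4 days (stage 4), 4 to 5 days (stage 5), 5 to 6 days (stage 6) and 6 to 7 days (stage 7). No source used here gives the light regime or the hour of collection.

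A phytochrome is a protein with a bound chromophore that switches between a red-absorbing and a far-red-absorbing form. The far-red-absorbing form is the active one, and it enters the nucleus, where it acts on transcription factors and on the COP1 ubiquitin ligase. Phytochrome A is light-labile. In Arabidopsis and other plants its protein builds up in darkness and is degraded in light, and its gene is repressed by light, so it serves the first responses of a seedling to very weak light and to far-red light. Phytochrome B is light-stable and carries most red-light responses of green tissue, such as de-etiolation and shade avoidance. In soybean, phytochrome A genes also underlie maturity loci that set flowering time under long days. The cotyledon is the storage leaf of the embryo, and it greens and begins to photosynthesise over the days sampled here.

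No table at hand pairs the identifiers with gene names. The RefSeq gene table (assembly Glycine_max_v4.0) matched 0 of them, so the names phytochrome A and B are those given with the loci. As a partial check, the table holds a phytochrome symbol of the same type on the chromosome whose number the identifier carries for 4 of the 6 loci. These are E4, with the synonym GmphyA2, on chromosome 20, PHYA with the synonym GmphyA1 on chromosome 10, PHYA3 on chromosome 19 and PHYB on chromosome 9.

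Values are in RPKM, reads per kilobase of model scaled to the library's read total. Counted back into reads, the libraries held 83889300 to 130718778 reads assigned to models. The lists kept for storage and for greening followed the stages. From stage 3 to stage 7 all 5 identifiers taken for glycinin, a seed storage globulin, fell, where 14.9% of all models did. All 3 taken for the small subunit of Rubisco, the carbon-fixing enzyme, rose, where 9.57% did. Their highest mean was at stage 6, and both stage 7 libraries lay below those of stage 6. How reads matching more than 1 of these models were counted is not known here. The glycinin count was 1 without stage 3 replicate 2 or without either stage 7 library, and the Rubisco count stayed at 3 with each library left out. Stage 1 stands apart before any result. Its replicates correlated at 0.8035 over the 44450 models tested, against 0.945 to 0.963 at the other stages, and 31.9% of models differed at least 2-fold between them. All 6 phytochrome loci were lower in stage 1 replicate 1 than in replicate 2, by 2.55 to 6.56 times. Of all tested models, 30.02% differed by at least that smallest factor in the same direction, and the median model was 1.56 times higher in replicate 2. A group of 52 neighbouring chromosome 13 identifiers also took more reads in replicate 2 than in replicate 1, from 3.43% to 15.3% against 0.566% to 3.43%. Its part in the results was not tested beyond the rescaling given with the sensitivity of the results. In bulk tissue, fewer cells of a type and less RNA per cell cannot be told apart.

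The levels spanned more than 2 orders of magnitude between the loci. RPKM is scaled by model length, so levels can be compared between loci, except that the rule for reads matching several models is not known here. The pair Glyma20g22160 and Glyma10g28170, on models of 3824 and 3393 bases, made up most of the phytochrome RNA. Its 2 models stood above 95.4% to 98.8% and above 94.3% to 98.8% of all tested models, depending on the stage. The phytochrome B locus Glyma09g03990 (4033 bases) came next, above 72.7% to 87.9% of models, followed by Glyma15g14980 (3515 bases), above 63.3% to 78.7%. The other phytochrome A pair was low. Glyma19g41210 (3630 bases) stood above 29.0% to 43.6% of models, and Glyma03g38620 (3006 bases) stayed under 1 RPKM in all 14 libraries. It therefore lay below the filter of 1 RPKM in at least 2 libraries and was not tested. Read numbers set the precision. They ran from 9856 to 56689 reads per library for Glyma20g22160 and from 32 to 228 for Glyma03g38620, whose lowest count has an exact Poisson interval (95%, counting error only) of 21.9 to 45.2 reads.

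The main phytochrome A pair had its highest mean at stage 3 and its lowest at stage 7. The same peak stage was found in 16.7% of all tested models. In the order replicate 1 and replicate 2, Glyma20g22160 was at 22.8 and 91.2 RPKM at stage 1, at 122 and 92.6 at stage 2 and at 135 and 117 at stage 3. It was at 108 and 69.1 RPKM at stage 4, at 68.8 and 57.6 at stage 5, at 56.3 and 73.0 at stage 6 and at 43.1 and 50.6 at stage 7. The stage 2 and stage 3 libraries were all above those of stages 5, 6 and 7, while stage 4 had 1 library on the level of stage 2 and 1 on the level of stages 5 and 6. Stages 5 and 6 overlapped each other, and stage 7 lay below both. As means with SD (n = 2), the locus went from 126 ± 12.5 RPKM at stage 3 through 88.5 ± 27.4 at stage 4 and 63.2 ± 7.91 at stage 5 to 46.8 ± 5.25 at stage 7.

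Glyma10g28170 followed the same course. It was at 16.0 and 75.6 RPKM at stage 1, at 106 and 82.6 at stage 2, at 128 and 121 at stage 3 and at 89.8 and 54.3 at stage 4. At the later stages it was at 56.3 and 55.4 (stage 5), 46.9 and 69.0 (stage 6) and 35.0 and 43.5 RPKM (stage 7). Stage 3 lay above every other library, stage 7 below every library of stages 2 to 6, and stages 4, 5 and 6 overlapped. Across the 14 libraries the log2 levels of the 2 loci correlated at r = 0.991, and at 0.985 over the 12 libraries without stage 1. These libraries share stages and depth, and no source used here says how reads matching both loci were counted. In 13 of the 14 libraries Glyma20g22160 was the higher of the pair, and the libraries of the 2 loci overlapped at every stage other than stage 5.

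**Figure D1:**
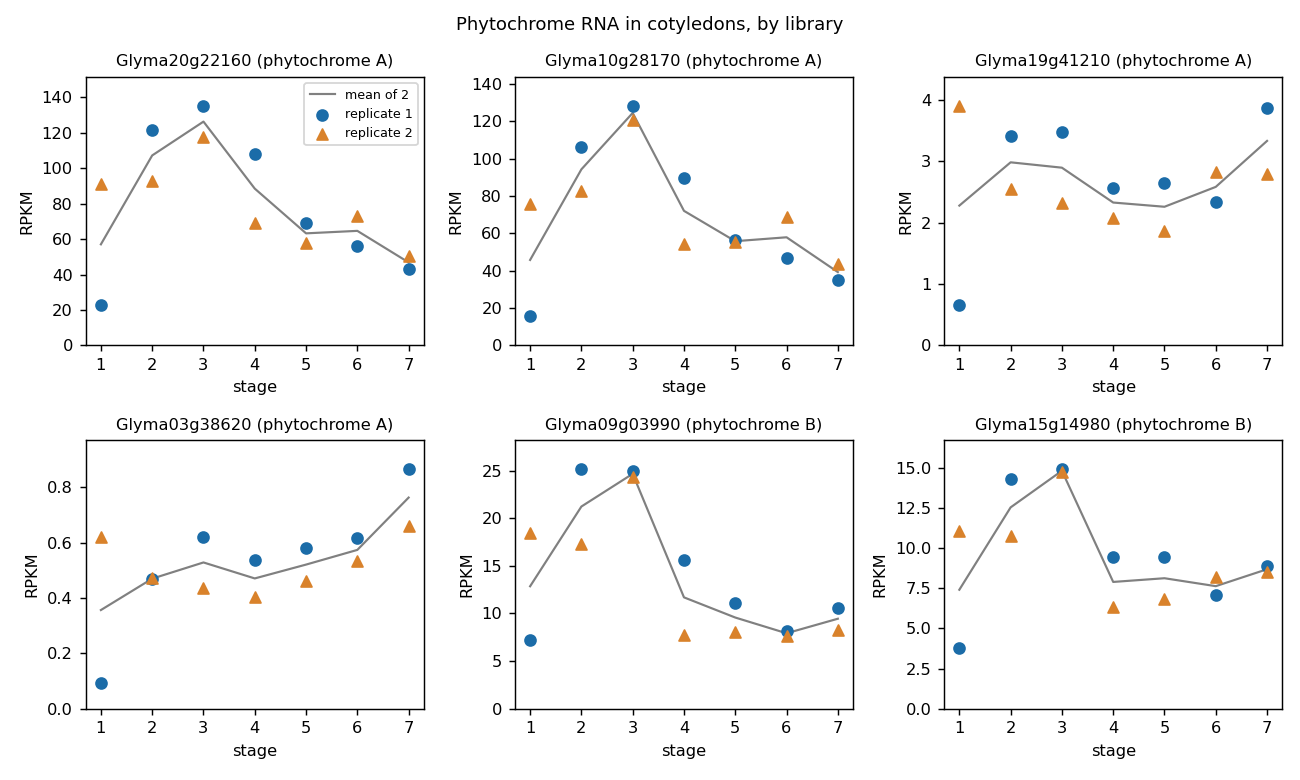
RPKM (linear axis from 0) of the 6 phytochrome loci by stage, with circles for replicate 1, triangles for replicate 2 and a line through the mean of the 2. The main phytochrome A pair and both phytochrome B loci have their highest mean at stage 3, Glyma19g41210 and Glyma03g38620 have theirs at stage 7, and stage 1 replicate 1 is the lowest library in all 6 panels (7.24 RPKM in Glyma09g03990, close to the 7.66 of stage 6 replicate 2).

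Both phytochrome B loci also had their highest mean at stage 3, and the largest step between their neighbouring later stages lay between stages 3 and 4. Glyma09g03990 was at 7.24 and 18.5 RPKM at stage 1, at 25.1 and 17.3 at stage 2, at 24.99 and 24.3 at stage 3 and at 15.6 and 7.75 at stage 4. It was at 11.1 and 8.09 RPKM at stage 5, at 8.18 and 7.66 at stage 6 and at 10.6 and 8.30 at stage 7. Stage 3 was above all later libraries. Stage 5 overlapped stages 6 and 7, while stage 7 lay just above stage 6. The mean was 24.7 ± 0.476 RPKM at stage 3 and 7.92 ± 0.369 at stage 6 (SD, n = 2).

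Glyma15g14980 was at 3.77 and 11.1 RPKM at stage 1, at 14.3 and 10.8 at stage 2, at 14.9 and 14.7 at stage 3 and at 9.46 and 6.34 at stage 4. It then stayed between 6.81 and 9.45 RPKM in the 6 libraries of stages 5 to 7. All 8 libraries from stage 4 on lay below the 4 libraries of stages 2 and 3. Among them stage 7 lay just above stage 6, and the other pairs of stages overlapped. So in 4 of the 5 tested phytochrome loci every library of stages 2 and 3 was above every library of stages 5 to 7. The same held for 34.5% of all tested models.

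The minor phytochrome A loci had another course. Glyma19g41210 was at 0.654 and 3.91 RPKM at stage 1, at 3.42 and 2.56 at stage 2, at 3.48 and 2.32 at stage 3, at 2.57 and 2.09 at stage 4, at 2.65 and 1.87 at stage 5, at 2.35 and 2.83 at stage 6 and at 3.88 and 2.79 at stage 7. Stage 7 lay above stages 4 and 5 and overlapped stages 2, 3 and 6, and the stages from 2 to 6 overlapped. Glyma03g38620 was between 0.404 and 0.619 RPKM in the 10 libraries of stages 2 to 6 and at 0.864 and 0.660 at stage 7, the 2 highest of its 14 values. Both loci had their highest stage mean at stage 7, as 16.9% of tested models did. The minor pair gave 1.15% to 1.98% of the summed phytochrome A RPKM at stages 2 to 4, 2.02% to 2.79% at stages 5 and 6, and 5.72% and 3.54% at stage 7. The 6 values of stages 2 to 4 did not overlap the 6 of stages 5 to 7. Stage 1 was at 1.89% and 2.64%, so its replicate 2 lay within the range of stages 5 and 6, and early and late stages were not separated over the whole course. This comparison was chosen after the values were seen and was not tested.

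The question of whether a locus differed among the 7 stages was put to a moderated F test in limma on log2(RPKM + 1) over all models, with p-values adjusted by Benjamini-Hochberg. Glyma09g03990 passed (limma adjusted p = 0.0470), though not with a term for the replicate number in the fit (limma adjusted p = 0.0573). This call ended with a pseudocount of 0.1 (limma adjusted p = 0.0546), with no filter (0.0725), under quantile normalization (0.0650) and upper quartile scaling (0.0948), with limma voom (0.0572) and when 1 of 10 of the 14 libraries was left out, those of stages 1 and 4 being the exceptions. The other 4 did not, with limma adjusted p of 0.119 for Glyma10g28170, 0.152 for Glyma20g22160, 0.196 for Glyma15g14980 and 0.833 for Glyma19g41210. That is 1 of 5, where 58.0% of all models passed. In the same test on stages 2 to 7 alone, 4 of 5 passed (limma adjusted p of 0.00731 for Glyma09g03990, 0.00959 for Glyma10g28170, 0.0130 for Glyma20g22160 and 0.0277 for Glyma15g14980), where 66.5% of models passed. The limma adjusted p of Glyma19g41210 was 0.520 there. The 2 stage 1 libraries thus decided the calls of 3 loci.

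All 21 pairs of stages were then compared, with a model called at an adjusted p under 0.05 and a log2 fold change of at least 1 in size. From stage 3 to stage 7, Glyma09g03990 fell, with a log2 fold change of -1.30 and an SE of 0.418 (limma adjusted p = 0.0362). Glyma10g28170 fell as well (-1.65 ± 0.568, limma adjusted p = 0.0468). Its partner Glyma20g22160 was at -1.41 ± 0.523, which did not pass (limma adjusted p = 0.0594), and Glyma15g14980 had -0.71 and Glyma19g41210 had 0.16. In that comparison 14.9% of all models were called lower at stage 7, and the median model was at -0.37. The mean of Glyma09g03990 at stage 6 was lower than at stage 3 (-1.52 ± 0.418, limma adjusted p = 0.0162) and than at stage 2 (-1.29 ± 0.418, limma adjusted p = 0.0269). There 22.9% and 25.9% of all models were called lower, and the median model was at -0.56 and -0.57. The call of Glyma10g28170 from stage 3 to stage 7 ended under upper quartile scaling (-1.35, limma adjusted p = 0.0853) and quantile normalization (-1.74, limma adjusted p = 0.0659), while Glyma09g03990 kept that call in both (-1.02 and -1.08). Its other calls did not all hold. From stage 2 to stage 6 the call ended in both (-0.71, limma adjusted p = 0.135, and -0.77, limma adjusted p = 0.0970), and from stage 3 to stage 6 it ended under upper quartile scaling (-0.95, limma adjusted p = 0.0643). Single libraries mattered too. Of 14 libraries left out in turn, 12 ended the call of Glyma10g28170 from stage 3 to stage 7, and 4, 4 and 3 ended those of Glyma09g03990 from stage 3 to 7, from 3 to 6 and from 2 to 6. For Glyma09g03990 these were all libraries of the stages compared. Under upper quartile scaling and quantile normalization the median model from stage 3 to stage 7 moved to -0.14 and -0.15.

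The 1 other call was a rise of Glyma10g28170 from stage 1 to stage 3 (log2 fold change 1.80 ± 0.568 SE, limma adjusted p = 0.0467), where 13% of models were called higher. The other 4 had log2 fold changes of 0.44 to 1.44 and did not pass. This comparison rests on stage 1, and its call ended for 13 of the 14 libraries left out in turn. Without stage 1 replicate 1 the log2 fold change of Glyma10g28170 was 0.71, where the median model was at 0.07. Without stage 1 replicate 2 those of the 5 loci were 1.22 to 2.88, where the median model was at 0.49. None of the 5 loci passed at the 6 steps between neighbouring stages. From stage 3 to stage 4, where the means of the phytochrome B loci dropped most, the log2 fold change was -1.09 ± 0.418 for Glyma09g03990 (limma adjusted p = 0.323) and -0.85 ± 0.385 for Glyma15g14980 (limma adjusted p = 0.394). In that step 1 model in all was called, and 5630 models had an unadjusted p under 0.05.

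In the limma fit of stages 2 to 7 the same 5 loci gave 12 calls over 15 pairs of stages, all of them lower at the later stage. Glyma20g22160 passed from stage 2 to 7 and from stage 3 to 7 (log2 fold changes -1.17 and -1.41, limma adjusted p = 0.00801 and 0.00378). Glyma10g28170 passed in the same pairs (-1.24 and -1.65) and also from stage 3 to stages 5 and 6 (-1.14 and -1.12). Glyma09g03990 passed from each of stages 2 and 3 to each of stages 5, 6 and 7, at -1.06 to -1.52. No pair passed for Glyma15g14980 or Glyma19g41210. The share of all models called lower in that fit was 6.52% from stage 3 to 5, 25.9% from 3 to 6, 17.8% from 3 to 7, 11.3% from 2 to 5, 29.0% from 2 to 6 and 19.6% from 2 to 7. The 2 calls from stage 3 to stage 5 are those with the lowest background.

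**Figure D2:**
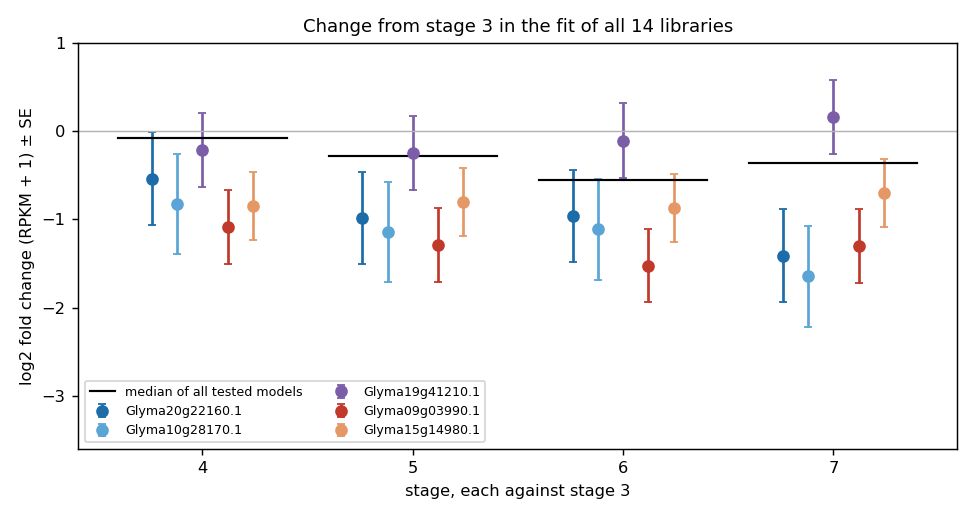
Log2 fold change of log2(RPKM + 1) with its standard error, for each tested phytochrome locus at stages 4 to 7 against stage 3, in the limma fit of all 14 libraries. The black bars are the median of all tested models, from -0.08 at stage 4 to -0.56 at stage 6. Glyma09g03990 lies lowest at stages 4 to 6 and Glyma10g28170 at stage 7 (-1.65), and Glyma19g41210 stays between -0.25 and 0.16.

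Ratios between loci within a library do not depend on how the libraries are scaled to each other, as long as no constant is added. The 3 ratios between single loci had 0.1 RPKM added to both values, so they depend on it in part, most for the low minor pair. With nothing added the phytochrome B ratio ran from 0.936 to 1.92 over the libraries. Of 4 ratios, that within the phytochrome B pair differed most between early and late stages. With 0.1 RPKM added to both values, the ratio of Glyma09g03990 to Glyma15g14980 was 1.90 and 1.66 at stage 1, 1.75 and 1.60 at stage 2 and 1.67 and 1.65 at stage 3. At stage 4 the ratio was 1.65 in replicate 1 and 1.22 in replicate 2. It was 1.17 and 1.18 at stage 5, 1.15 and 0.937 at stage 6 and 1.19 and 0.978 at stage 7. The 6 early libraries (stages 1 to 3) were all above the 6 late ones (stages 5 to 7), stage 1 replicate 1 included, and the 2 loci were near equal at the end. How reads matching both loci were counted is not known here. The mean log2 ratio was 0.77 ± 0.087 early and 0.13 ± 0.15 late (SD, n = 6), a difference of -0.63 with an exact permutation p of 0.00216 (two-sided), the smallest that 6 against 6 allows, and 0.00866 adjusted over the 4 ratios. The 2 libraries of a stage were permuted as separate units, though they are not independent of stage. The p and the n of 6 therefore count libraries and overstate the replication, for all 4 ratios. The test sets early against late libraries and not stage against stage.

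**Figure D3:**
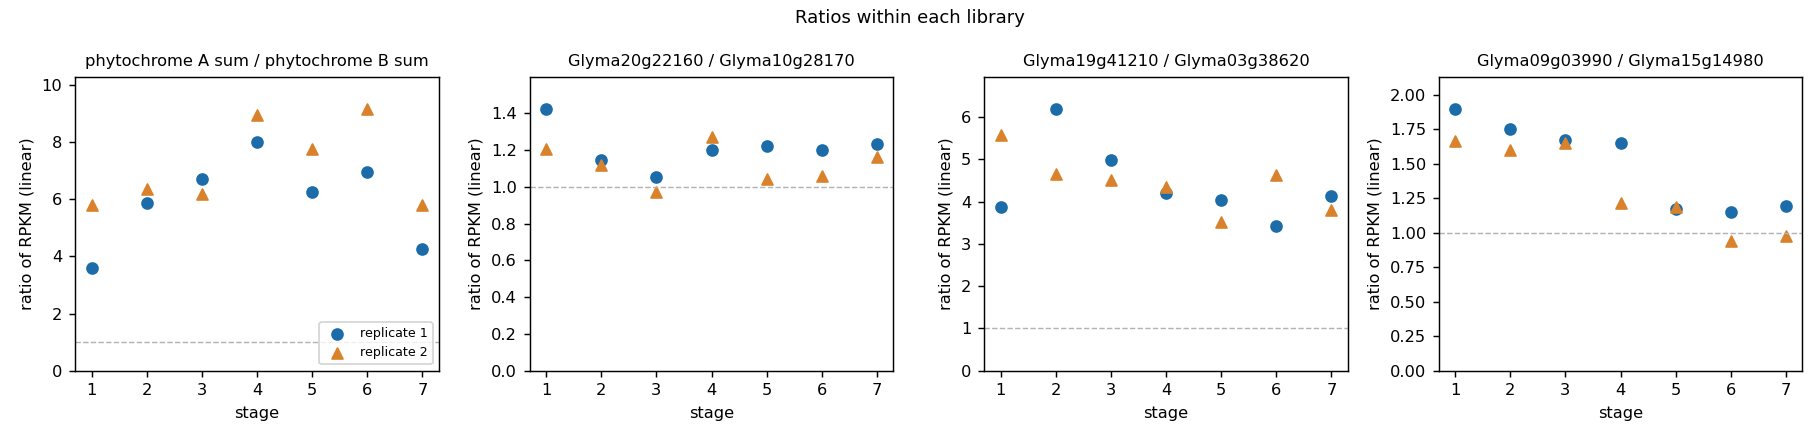
Ratio of RPKM (linear axis from 0, with 0.1 added to both values in the 3 ratios between single loci) within each library by stage, with circles for replicate 1 and triangles for replicate 2 and a dashed line at a ratio of 1. The phytochrome B ratio goes from 1.60 to 1.90 at stages 1 to 3 down to 0.937 to 1.19 at stages 5 to 7, with no overlap, while the main phytochrome A pair stays between 0.973 and 1.43.

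The main phytochrome A pair kept nearly equal levels. Glyma20g22160 was 0.973 to 1.43 times the level of Glyma10g28170 in the 14 libraries, with a mean log2 ratio of 0.20 ± 0.19 early and 0.20 ± 0.11 late (SD, n = 6, exact permutation p = 0.957, adjusted 0.957). Within the minor pair Glyma19g41210 was 3.82 to 7.31 times the level of Glyma03g38620, and the ratio was 3.42 to 6.20 with 0.1 added to both values, as in the test. The mean log2 ratio was 2.30 ± 0.24 early and 1.96 ± 0.16 late (SD, n = 6), a difference of -0.33 (exact permutation p = 0.0216, adjusted 0.0433). With 0.1 added, the early and late libraries overlapped. With a pseudocount of 1 in place of 0.1 the adjusted p of the exact permutation test was 0.873. Glyma03g38620 was under 1 RPKM in every library, so adding 1 flattens this ratio and cannot decide whether it changed. Adding 0.1 flattens it too, though less. Leaving out a single library ended the call for 10 of the 12 libraries.

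Phytochrome A as a whole stayed well above phytochrome B. The 4 phytochrome A loci summed to 254 ± 18.8 RPKM at stage 3, 163 ± 53.0 at stage 4 and 90.2 ± 10.4 at stage 7 (SD, n = 2). For the 2 phytochrome B loci the sums were 39.5 ± 0.612, 19.6 ± 7.78 and 18.1 ± 1.92 RPKM. Their ratio was 5.80 to 6.70 in the libraries of stages 1 to 3 other than stage 1 replicate 1, where it was 3.59. It was highest in the middle and late stages, at 8.0 and 8.94 at stage 4, 6.26 and 7.74 at stage 5 and 6.95 and 9.17 at stage 6, and lower at stage 7, at 4.25 and 5.81. Early against late libraries gave a mean log2 difference of 0.21 (exact permutation p = 0.335, adjusted 0.447), so no difference beyond the spread was found. Stage 4, the stage with the highest mean, belongs to neither side of that test.

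Among other loci, the models with the most similar courses were taken by identifier alone, as the highest Pearson correlations of log2(RPKM + 1) over the 14 libraries among 13242 models with a mean of at least 10 RPKM. Both loci of the main phytochrome A pair had Glyma08g05100.1 as the nearest (r = 0.956 for Glyma20g22160 and 0.949 for Glyma10g28170). The second was Glyma05g34560.1 for Glyma20g22160 (0.949) and Glyma16g28310.1 for Glyma10g28170 (0.948). Each of these was below the 0.991 between the 2 loci themselves. Nearest to the phytochrome B loci were Glyma18g53880.1 and Glyma07g11310.1 for Glyma09g03990 (0.977 and 0.972) and Glyma11g06640.1 and Glyma08g44130.1 for Glyma15g14980 (0.945 and 0.937). For Glyma19g41210 they were Glyma04g07950.1 and Glyma06g07990.1 (0.919 and 0.917). All these correlations include stage 1, where Glyma19g41210 was at 0.654 RPKM in replicate 1, against 1.87 to 3.91 in the other libraries. No neighbour was sought without stage 1, so how far they rest on that library was not tested. The phytochrome B loci correlated with each other at 0.892, and at 0.954 without stage 1. Glyma19g41210 correlated with Glyma20g22160 at 0.620 over all libraries and at 0.121 without stage 1.

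The other light receptors were read from lists of identifiers taken from general knowledge of soybean, which no table here pairs with names. For 27 of the 30 identifiers on these and the marker lists, the RefSeq table has a symbol of the same list on the chromosome of that number. Identifiers of 1 chromosome can share a symbol, as Glyma04g05280 and Glyma04g33110 share ELF3A and Glyma19g06340 and Glyma19g06370 share RBCS2. The count is therefore no check of each name. On the phytochrome E list, a further light-stable type, Glyma09g11600.1 was at 0.943 and 2.06 RPKM at stage 1, 2.21 and 1.23 at stage 2, 2.24 and 1.19 at stage 3, 1.13 and 0.941 at stage 4 and 0.548 to 1.17 in the 6 later libraries. Its log2 fold change from stage 3 to stage 7 was -0.71 (limma adjusted p = 0.0681). The other, Glyma15g23400.1, stayed under 1 RPKM and was not tested. Of 5 tested models on the cryptochrome list, the blue light receptors, 1 passed the F test, where 58.0% of all models passed, and 1 rose from stage 3 to stage 7. Glyma06g10830.2 was at 22.4 and 24.6 RPKM at stage 3 and at 72.6 and 42.3 at stage 7 (log2 fold change 1.21, limma adjusted p = 0.0338), where 9.57% of all models were called higher. The F count was 0 after rescaling without the chromosome 13 block and 0 to 3 with 1 library left out. The count from stage 3 to stage 7 was 0 without stage 2 replicate 2, without either stage 3 library or without stage 7 replicate 1. The list ran from -0.70 to 1.21 with a median of 0.06, against a median of -0.37 over all models.

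**Figure D4:**
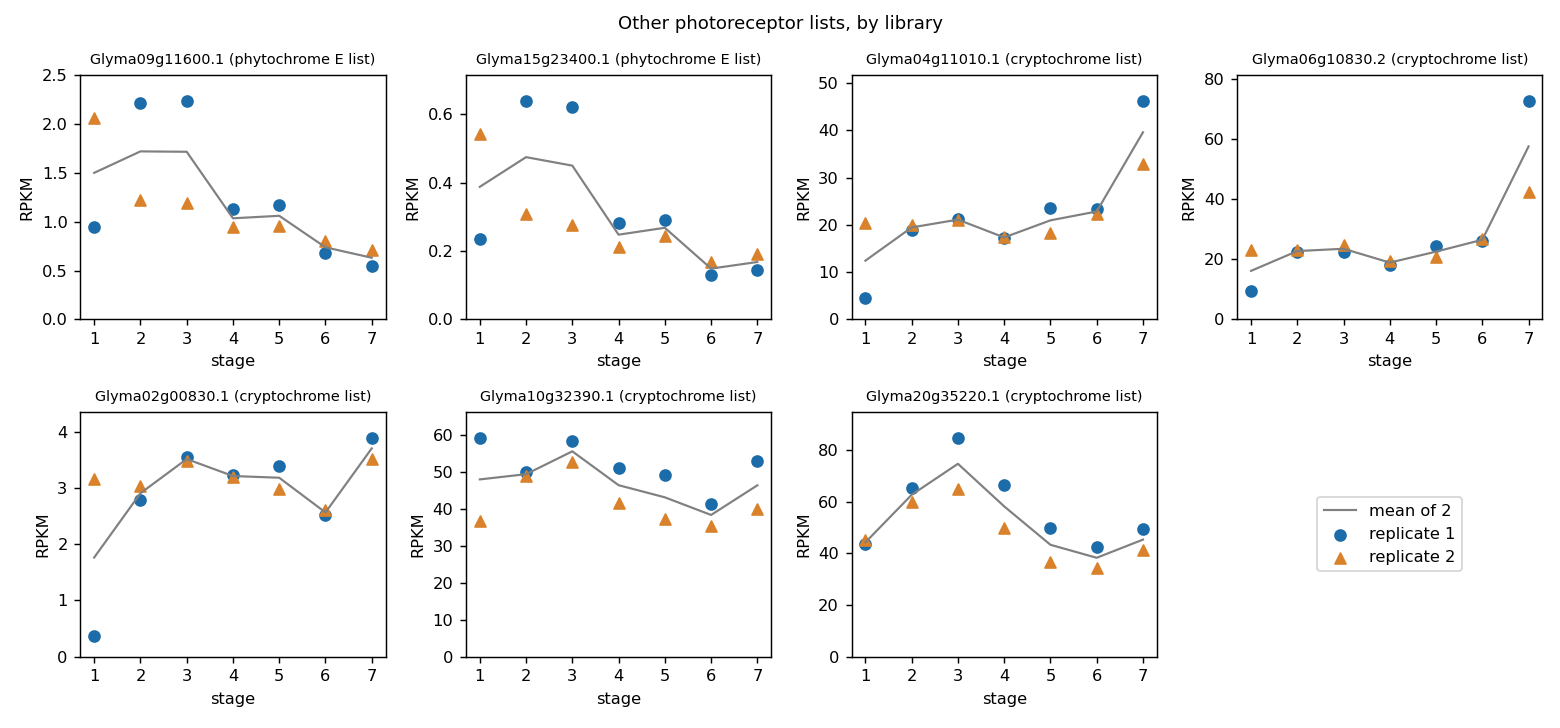
RPKM (linear axis from 0) of the 2 phytochrome E and 5 cryptochrome list models by stage, with circles for replicate 1, triangles for replicate 2 and a line through the mean of the 2. Glyma06g10830.2 and Glyma04g11010.1 are highest at stage 7 (72.6 and 46.2 RPKM in replicate 1), and both phytochrome E models are below 2.3 RPKM throughout.

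The models named here and among the cryptochromes were chosen after their values were seen. On the list of CONSTANS-like genes, transcription factors that in Arabidopsis link day length to flowering, both tested models rose from stage 3 to stage 7, where 9.57% of all models did, and the other 2 stayed under the filter. Glyma08g28370.1 was at 1.68 and 0.832 RPKM at stage 3, 2.95 and 4.22 at stage 4, 13.5 and 24.2 at stage 5, 28.9 and 41.0 at stage 6 and 36.2 and 29.7 at stage 7 (log2 fold change 3.93, limma adjusted p = 0.000107). Glyma18g51320.1 reached 55.0 and 49.0 RPKM at stage 7 (4.13, limma adjusted p = 0.000184). On the circadian clock list 4 of 11 models passed the F test, a smaller share than the 58.0% of all models. From stage 3 to stage 7, 0 were called higher and 2 lower, beside 9.57% and 14.9% of all models, and the median log2 fold change was 0.36. The 2 lower ones were Glyma04g33110.1 (-1.69, limma adjusted p = 0.00998) and Glyma06g21120.1 (-1.85, limma adjusted p = 0.00540). Glyma03g42260.2 and Glyma19g45030.1 were at 2.84 and 2.08 without a call (limma adjusted p = 0.0606 and 0.108). With a term for the replicate number 2 models were called higher, and under quantile normalization 1 was, with 2 lower in both. The F count was 5 with that term and 2 with a pseudocount of 5.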

How the data were processed

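The authors deposited 1 RPKM value per gene model and library, per the file headers. The submitters' processing notes name Bowtie, and no source used here states its version, its settings, the genome build, the annotation, strandedness or the rule for reads that match several models. RPKM values were turned back into reads by taking, for each model, the smallest whole length that gave whole reads in every library above 0. Such a length was found for all 67016 models with 2 or more libraries above 0, to within 0.003 reads plus a small rounding margin. The model lengths given here were inferred in this way. Whole reads were the criterion of the search, so they are no check of it.

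A model was tested when 2 or more libraries reached 1 RPKM, which left 44450 models at 35547 loci. log2(RPKM + 1) was fitted in limma 3.58.1 under R 4.3.3 (statmod 1.5.0 for robust moderation, with a mean-variance trend). The design had 1 mean for each of 7 stages and no replicate term. Its pooled spread includes the wide stage 1 pair, and adding 1 understates changes of low models. Ratios were tested by exact permutation with scipy 1.17.1. The fit was also run on simulated data with 1 spread per model for all libraries. The wider spread of stage 1 was not simulated, so that run cannot show how the fit handles it. Each tested locus was given its 2 most correlated models, and every member was described. Other list models named singly were picked after their values were seen. Members, lists and tests were chosen with earlier results of these data known. The labels call the replicates biological and do not say whether they came from separate plantings, so p-values measure the spread between these libraries. Alternatives changed the pseudocount, filter, scaling, replicate term and libraries used.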

Additional observations from a re-analysis of the deposited data

How the results depend on the processing

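The count of phytochrome loci passing the F test was 1. It was 0 with a pseudocount of 0.1, no filter, quantile normalization, upper quartile scaling, the replicate block and limma voom on recovered reads, 4 with stage 1 left out, and 0 to 5 with 1 library left out. In the limma F test the adjusted p of Glyma09g03990 lay between 0.00545 and 0.133 when single libraries were dropped. The count of calls over pairs of stages was 5. It was 2 with no filter, 1 under upper quartile scaling, 2 with quantiles normalized, 3 after rescaling without the chromosome 13 block, 12 with stage 1 left out, 12 in fits of only the 4 libraries compared, and 1 to 34 with 1 library left out, with 13 without stage 1 replicate 1 and 34 without stage 1 replicate 2. Counts over all models moved over the alternatives too, and some are given below. The replicate block left the count of pair calls at 5 and ended the F call of Glyma09g03990 (limma adjusted p = 0.0573). No label says what a replicate number marks. Replicate differences correlated over 0.1 in 18 of 21 pairs of stages, up to 0.602, and at -0.173 to -0.00523 in the 3 others, all with stage 1. Stage 1 with stages 2, 3 and 4 was among the 18, at 0.389, 0.274 and 0.191. The main fit took no pairs, though libraries of 1 number shared differences in most pairs of stages. The chromosome 13 block also took more reads in replicate 2 at every stage. With the replicate block 27040 models passed the F test, and 25762 passed without it. What libraries of 1 number share was not tested.

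The phytochrome B ratio difference stayed between -0.658 and -0.589 with 1 library left out (adjusted p = 0.0173 in each of these exact permutation tests). With permutation within replicate number, a replicate block, its adjusted p was 0.020. The early and late libraries did not overlap, so each of these tests had to return its smallest possible p and adds no support of its own. The minor phytochrome A ratio difference of -0.33 was -0.10 with a pseudocount of 1, which flattens this ratio by itself. It was -0.33 with the replicate block (exact permutation, adjusted p = 0.0800), and -0.398 to -0.263 with 1 library left out. The ratio of Glyma20g22160 to Glyma10g28170 turned sign, from -0.0432 to 0.0672, and that of phytochrome A to phytochrome B ran from 0.0777 to 0.331. Glyma19g41210 turned sign without a call. From stage 3 to stage 6 it was at 0.35 with upper quartile scaling and 0.41 with quantiles normalized, and from stage 2 to stage 6 at 0.33 and 0.36. With 1 library left out it ran from -0.348 to 1.22 for stage 3 against 1, from -0.304 to 0.00893 for 6 against 2, from -0.323 to 0.107 for 6 against 3, from -0.0632 to 0.300 for 7 against 2 and from -0.0572 to 0.373 for 7 against 3. The cause was not tested. Each locus has 1 model, so summing models changes nothing. Counts over all models moved too. For stage 6 against 3 the 13402 became 5933 with a pseudocount of 5 and 16916 with a pseudocount of 0.1. For stage 7 against 3 the 10859 became 5454 with a pseudocount of 5 and 12692 in the fit of only the 4 libraries compared. For stage 3 against 1 the 7494 became 0 in the fit of only the 4 libraries compared and 9709 with limma voom. Leaving out 1 library moved these counts as well. The lowest read number, 32, was that of Glyma03g38620, which lay under the RPKM filter and had an F test adjusted p of 0.560 in limma with no filter.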

Other observations

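Several models of the circadian clock list differed between the replicates of stages 5 and 6 more than the phytochromes did. Glyma16g01980.3 was at 25.3 and 105 RPKM at stage 5, at 29.3 and 97.4 at stage 6 and at 46.7 and 51.8 at stage 7, in the order replicate 1 and replicate 2. Glyma03g42260.2 was at 6.28 and 63.6 RPKM at stage 5 and at 4.68 and 56.9 at stage 6, with 12.9 and 14.6 at stage 7. Other models of the list lay the opposite way. Glyma10g36600.1 was at 33.5 and 15.4 RPKM at stage 5 and at 29.7 and 9.11 at stage 6, and Glyma17g11040.2 was at 18.1 and 9.58 and at 13.7 and 2.79. So replicate 2 was 4.13 and 10.1 times replicate 1 for the first pair at stage 5, and 0.459 and 0.529 times for the second. For Glyma20g22160 replicate 2 was 0.838 times replicate 1 at stage 5 and 1.30 times at stage 6. For Glyma09g03990 it was 0.731 times at stage 5 and 0.936 times at stage 6. Models were named here after their values were seen, and no comparison was tested.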
